A study of Mus musculus with 3 samples.

Results

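The genes that build major histocompatibility complex (MHC) class I molecules and load them with peptide were described in mouse bone-marrow-derived macrophages. Members were every gene whose symbol names a class I heavy chain of the H2-K, H2-D, H2-Q, H2-T or H2-M series or H2-Bl, together with B2m, Tap1, Tap2, Tapbp, Tapbpl, Erap1, Calr, Pdia3 and Nlrc5. This rule took 40 of 55536 annotated genes, of which 31 are heavy-chain symbols and 9 are partners, and 33 of the 40 are annotated as protein-coding. The study sequenced polyadenylated RNA of 3 libraries of primary macrophages from C57BL/6J mice, numbered biological replicates 1, 2 and 3. All 3 were treated alike: the cells met lipid A at 100 ng/ml over 12 h, were kept without it over another 12 h after washing, and met the same dose again over 480 min. Lipid A is the membrane anchor of bacterial lipopolysaccharide, although the labels' treatment entries say lipoprotein A in its place. No untreated library was analysed here, so what follows are levels, ratios within a library and the replicate spread, with nothing on what the treatment changed. Only 1 donor record is given for the replicates, and separate animals are not mentioned, so their spread may be technical. The age and sex of the mice are recorded as not collected.

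Class I molecules display peptides cut from proteins made inside the cell to CD8 T cells, and some also engage receptors of natural killer cells. A polymorphic heavy chain pairs with the light chain, beta-2 microglobulin, in the endoplasmic reticulum, where peptides arrive through the TAP transporter and are trimmed and loaded with the help of chaperones. In C57BL/6 mice the classical heavy chains are H2-K1 and H2-D1, and the Q, T and M series hold the non-classical ones. In macrophages, interferons and Toll-like receptor signals are known to raise class I expression, and the coactivator Nlrc5 acts at class I promoters.

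Each library was quantified in 2 ways, called first and second here, and levels are in TPM of the first unless stated. TPM, a relative transcript abundance, corrects for transcript length and library size, and n is 3 for each mean ± SD. Expected counts of the first quantification totalled 24596382, 54016971 and 43127749 in replicates 1, 2 and 3, and the members took 2.70%, 2.31% and 2.56% of them. Replicate 2 stood apart, with 6.86% of its counts from mitochondrial protein-coding genes, against 1.06% and 1.13% in replicates 1 and 3, and with 0.232% from ribosomal RNA genes, against 3.21% and 1.97%. All 9 macrophage markers, among them Csf1r and Adgre1, reached 1 TPM in every library. None of the T cell, B cell, natural killer cell, fibroblast or erythroid markers did so, and the neutrophil marker S100a8 and the dendritic cell marker Ccr7 were the only others to reach it. In bulk RNA, fewer cells of a type and less RNA per cell cannot be told apart.

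B2m (ENSMUSG00000060802.8, mm10 chr2:122147686-122153083, plus strand), the light chain shared by all these heavy chains, was the fourth most abundant of all annotated genes by mean TPM. It stood at 16925, 27851 and 13777 TPM in replicates 1, 2 and 3, with a mean of 19517 ± 7386 TPM (SD, n = 3). Replicate 2 was the highest of the 3. H2-K1 (ENSMUSG00000061232.16, chr17:33996017-34000347, minus strand), the K heavy chain, stood at 8662, 5391 and 9341 TPM (7798 ± 2111), rank 15. H2-D1 (ENSMUSG00000073411.11, chr17:35262730-35267499, plus strand), the D heavy chain, stood at 5174, 1447 and 5106 TPM (3909 ± 2133), rank 26. For both heavy chains replicate 2 was the lowest, the opposite of B2m. The light chain therefore had 0.942, 3.18 and 0.734 times the summed TPM of the 31 heavy-chain symbols in replicates 1, 2 and 3, and by the second quantification 1.01, 3.54 and 0.816 times.

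H2-K1 held 48.2%, 61.5% and 49.7% of the summed heavy-chain TPM (53.1 ± 7.26%), and H2-D1 held 28.8%, 16.5% and 27.2% (24.2 ± 6.68%). Together they took 77.0%, 78.0% and 76.9% (77.3 ± 0.589%), so on TPM over all transcripts their joint share differed less between libraries than either single share. Other scales did not keep it as even. On expected counts both held less in replicate 2 (34.3% and 32.2%) than in replicate 1 (34.9% and 39.4%). Over protein-coding transcripts with a complete annotated coding sequence both were lowest in replicate 2, at 29.5% for H2-K1 and 33.5% for H2-D1. Without replicate 2 the mean shares were 49.0% for H2-K1 and 28.0% for H2-D1. The H2-T series with H2-Bl held 11.5 ± 1.15% of the heavy-chain TPM, the H2-Q series 9.76 ± 0.926%, the H2-M series 1.29 ± 0.379% and the pseudogene H2-K2 0.0957 ± 0.0528%.

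The place of H2-K1 above H2-D1 depended on the scale. H2-K1 had 137256, 115951 and 217599 expected counts in replicates 1, 2 and 3, against 154964, 108564 and 277864 for H2-D1, so that H2-D1 had more reads in replicates 1 and 3. As shares of heavy-chain counts, which are not corrected for length, H2-K1 held 33.7 ± 1.56% and H2-D1 held 37.4 ± 4.64%. Over protein-coding transcripts with a complete annotated coding sequence alone, H2-K1 stood at 5197, 1219 and 4378 TPM, against 4912, 1381 and 4844 TPM for H2-D1. On that basis the log2 ratio of H2-K1 over H2-D1 was -0.08 ± 0.14 and changed sign between libraries, against 1.17 ± 0.63 over all transcripts.

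Among the non-classical heavy chains, the T series held a larger share of heavy-chain TPM than the Q series in replicates 1 and 3. The shares there were 11.8% and 12.6% for T, against 9.49% and 9.00% for Q. In replicate 2 the T share was the smaller by the first quantification (10.3%, against 10.8% for Q), where H2-Q5 alone held 2.82%. By the second quantification the T share was the larger in replicate 2 as well (11.9%, against 10.4% for Q), with H2-Q5 at 1.02%. H2-T23 (ENSMUSG00000067212.8, chr17:36029773-36032855, minus strand) encodes Qa-1, which presents leader peptides of other class I chains to the CD94/NKG2A receptor. It stood at 1018, 386 and 1133 TPM (846 ± 402). H2-T22, which is recognised by some gamma delta T cells, stood at 909, 339.7 and 1010 TPM (753 ± 361). The log2 ratio of H2-T23 over H2-T22 was 0.16, 0.19 and 0.17 in replicates 1, 2 and 3 (0.17 ± 0.01), although both genes were lower in replicate 2. On CPM, a library-scaled count with no length correction, this ratio had the opposite sign, -0.09 ± 0.01. H2-T24 stood at 149, 165 and 179 TPM (165 ± 15.3), the only heavy chain at 10 TPM or more on average that was neither lowest nor highest in replicate 2. H2-T10, annotated as a polymorphic pseudogene in this reference strain and closely related to H2-T22, stood at 37.9, 12.4 and 38.8 TPM (29.7 ± 15.0).

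In the Q series, H2-Q4 stood at 774, 376 and 695 TPM (615 ± 211). H2-Q7 stood at 479, 167 and 458 TPM (368 ± 174), and H2-Q6 at 386, 156 and 383 TPM (308 ± 132). H2-Q6 and H2-Q7 belong to the Qa-2 family, and their log2 ratio of -0.22 ± 0.11 had 1 sign in each library and lay within 3 SD of 0. Over complete coding transcripts it was 0.12 ± 0.35, with the opposite sign. H2-Q4 lay above H2-Q6 in each library, with a log2 ratio of 1.05 ± 0.21. H2-Q5, a polymorphic pseudogene, stood at 65.2, 247 and 154 TPM (156 ± 91.0) and in TPM was highest in replicate 2, unlike its neighbours. Its share of expected counts was lowest there, at 0.00327%, 0.00126% and 0.00215% in replicates 1, 2 and 3. In the M series, H2-M3 (ENSMUSG00000016206.6, chr17:37270220-37274484, plus strand), which presents N-formylated bacterial and mitochondrial peptides, stood at 129, 51.2 and 163 TPM (114 ± 57.3). H2-M2 stood at 155, 24.4 and 106 TPM (95.1 ± 66.0), and the order of H2-M3 and H2-M2 changed between libraries. The pseudogene H2-K2 was the lowest member above 1 TPM, at 27.9, 4.84 and 14.4 TPM (15.7 ± 11.6).

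The other 18 members, all heavy-chain symbols, averaged under 1 TPM. H2-Q10, a secreted heavy chain of liver, was listed at 0.69, 0.59 and 0.38 TPM (0.553 ± 0.158). H2-Q1, H2-M10.2 and H2-T3, the last of which encodes the thymus leukaemia antigen, had at most 2.05 expected counts in any library. The remaining 14 members had 0 counts in every library. They were H2-Bl, H2-M1, H2-M5, H2-M6-ps, H2-M9, H2-M10.1, H2-M10.3, H2-M10.4, H2-M10.5, H2-M10.5-ps1, H2-M10.6, H2-M11, H2-Q2 and H2-Q3. The M1 and M10 families are known from sensory neurons of the vomeronasal organ. With 3 counts as the limit that 0 allows, these genes could lie at up to 0.0526 TPM (H2-M10.3 in replicate 2) to 0.502 TPM (H2-Q3 in replicate 1), counting error only. The second quantification also gave 0 counts in every library to 8 of these 14, and at most 11.11 estimated counts to the others, reached by H2-Bl in replicate 1.

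Class I genes share promoter elements, so the RefSeq promoter windows (GRCm38.p6, 250 bases before to 50 after the start site) of the expressed members were searched on both strands. A window was found for 15 of the 22 members that averaged 1 TPM or more. GGGANTNCC, the form of an NF-kB site, was in 6 of 15 windows (40.0%), against 3.95% of all 32851 windows, and GAANNGAAA, the form of an interferon-stimulated response element, was in 7 of 15 (46.7%), against 7.52%. Both were present in 6 of 15 (40.0%), against 0.247% of all windows, and these 6 were the heavy chains H2-K1, H2-D1, H2-Q4, H2-Q6, H2-Q7 and H2-M2. In several of these windows GGGANTNCC matched both strands at the same place, and the letters of the 2 motifs did not overlap in these stretches. The 6 stretches that run from the first motif to the second are printed 5′ to 3′ on the gene's strand to show how alike they are, with both motifs in capitals and the response element in its reverse form.
H2-K1, chr17:34000429-34000457, minus strand: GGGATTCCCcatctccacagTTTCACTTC
H2-D1, chr17:35262924-35262952, plus strand: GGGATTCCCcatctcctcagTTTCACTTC
H2-Q4, chr17:35379444-35379472, plus strand: GGGATTTCCcatctccccagTTTCACTTC
H2-Q6, chr17:35424678-35424706, plus strand: GGGATTCCCcatctccccagTTTCACTTC
H2-Q7, chr17:35439023-35439050, plus strand: GGGATTCCCatctccccagTTTCACTTC
H2-M2, chr17:37483688-37483719, minus strand: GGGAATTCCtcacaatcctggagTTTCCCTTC
The stretches of H2-D1 and H2-Q6 differ from that of H2-K1 at 1 base each and that of H2-Q4 at 2, while those of H2-Q7 and H2-M2 have another length. Taken with their flanks, as 56 bases, those of H2-D1 and H2-Q4 overlap an exon annotated in GENCODE M21. The H2-D1 stretch lies within the gene as annotated there, since the RefSeq start site used is 364 bases from the M21 start of its most abundant coding transcript. TGACGC, the form of a cAMP response element at class I promoters, was in 5 of 15 windows (33.3%), against 7.40%, and ATTGG, the inverted CCAAT box, was in 14 of 15 (93.3%), against 37.4%. No window of Calr, H2-T23, Tapbp, H2-T22, Tap1, B2m, Pdia3 or Erap1 held either of the first 2 motifs. A match is a run of letters and says nothing of binding in these cells.

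The peptide transporter and the loading complex were all present. Tap1 (ENSMUSG00000037321.17, chr17:34187553-34197225, plus strand) and Tap2 (ENSMUSG00000024339.12, chr17:34203527-34216321, plus strand) encode the subunits of the transporter that brings peptides into the endoplasmic reticulum. Tap1 stood at 342, 101 and 344 TPM (262 ± 140), and Tap2 at 159.9, 40.9 and 143 TPM (115 ± 64.4). Both were lowest in replicate 2, and Tap1 exceeded Tap2 by a log2 ratio of 1.22 ± 0.10. Over complete coding transcripts this ratio was 3.37 ± 0.56. Tapbp (ENSMUSG00000024308.15, chr17:33915899-33929292, plus strand), or tapasin, which bridges the heavy chain to the transporter, stood at 804, 633 and 829 TPM (755 ± 107). Its relative Tapbpl, which edits peptides outside the loading complex, stood at 51.4, 19.8 and 53.4 TPM (41.5 ± 18.8). Tapasin exceeded it in each library, with a log2 ratio of 4.30 ± 0.60.

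Calr (ENSMUSG00000003814.8, chr8:84841850-84846934, minus strand), or calreticulin, which holds the heavy chain through its glycan, stood at 573, 1558 and 623 TPM (918 ± 555). Pdia3, or ERp57, its disulphide-handling partner, stood at 289, 267 and 271 TPM (276 ± 11.6). By the first quantification this was the smallest spread relative to the mean of all members at 10 TPM or more. By the second, Pdia3 was 234 ± 35.5 TPM, and Nlrc5 (94.4 ± 3.46 TPM) had a smaller relative spread. Calr exceeded its membrane-bound relative calnexin (Canx) by a log2 ratio of 1.87 ± 0.55, more than 3 SD from 0, although on CPM (0.83 ± 0.45) and without replicate 1 (2.02 ± 0.68) it lay within 3 SD. Erap1 (ENSMUSG00000021583.7, chr13:74639568-74693201, plus strand), the aminopeptidase that trims peptides to class I length, stood at 52.9, 236 and 57.2 TPM (115 ± 104). Calr and Erap1 thus resembled B2m in being highest in replicate 2. H2-Q5 was highest there in TPM but not in its share of counts. Without that library the means were 598 TPM for Calr and 55.0 TPM for Erap1. Nlrc5 (ENSMUSG00000074151.13, chr8:94434356-94527272, plus strand), the class I transactivator, stood at 155, 109 and 123 TPM (129 ± 23.7).

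**Figure D1:**
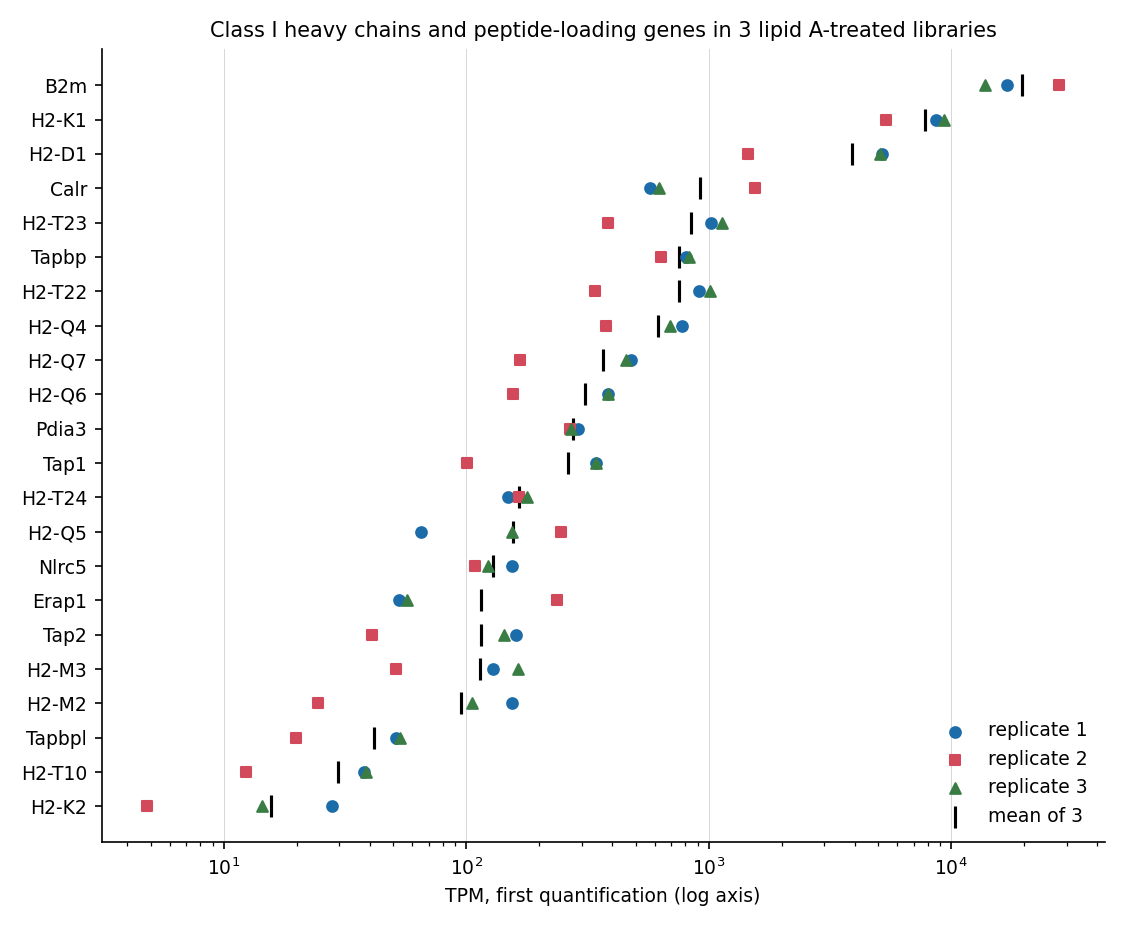
Level of each of the 22 members that averaged 1 TPM or more, in TPM of the first quantification on a log axis, with 1 symbol per library and a tick at the mean of the 3. Levels span B2m at 19517 TPM to H2-K2 at 15.7 TPM, and replicate 2 is the lowest library for 17 of the 22. Levels are not centred here. Over 10350 detected protein-coding genes the median deviation from the 3-library mean was 0.05, -0.20 and 0.14 in log2(TPM + 1) in replicates 1, 2 and 3.

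The 22 members that averaged 1 TPM or more reached that level in every library, which is 55.0% of the 40, against 18.1% of all annotated genes and 42.9% of protein-coding genes. They were all 9 partners and 13 of the 31 heavy-chain symbols (41.9%), so the heavy chains alone were near the share of protein-coding genes. At least 100 TPM in every library was reached by 14 of the 40 members, against 4.04% of protein-coding genes. At least 1000 TPM was reached by B2m, H2-K1 and H2-D1, against 0.281% of protein-coding genes. The 9 partners all reached 10 TPM in every library, as did 12 of the 31 heavy-chain symbols (38.7%), against 24.1% of protein-coding genes and 9.80% of all annotated genes. Neighbours in the order of mean levels mostly could not be ranked. A pair was called separated where its within-library log2 ratio kept its sign in each library and averaged more than 3 SD from 0, and of the 21 neighbouring pairs 20 were not separated, with Tapbpl over H2-T10 (0.52 ± 0.13) as the exception. Ratios carry no p, because 3 libraries allow an exact sign-flip p of 0.25 at the lowest.

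Of 20 pairs of members and related genes, 11 were separated, 7 kept 1 sign without being separated, and 2 changed sign. H2-K1 exceeded the class II beta chain H2-Ab1 by a log2 ratio of 5.42 ± 0.27 and exceeded H2-T23 by 3.31 ± 0.43. B2m exceeded the class II invariant chain Cd74 by 4.92 ± 1.41, which was not separated on CPM (4.18 ± 1.43) or without replicate 1 (5.18 ± 1.90). Nlrc5 exceeded the class II transactivator Ciita by 5.52 ± 1.16, which was not separated over complete coding transcripts (4.41 ± 1.61). The ratios of B2m over H2-K1 (1.30 ± 0.95) and over H2-D1 (2.47 ± 1.56) were positive in each library but not separated. Erap1 over Tap1 was -2.69, 1.23 and -2.58 in replicates 1, 2 and 3, a reversal in replicate 2. Without replicate 2, 18 of the 20 pairs were separated.

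**Figure D2:**
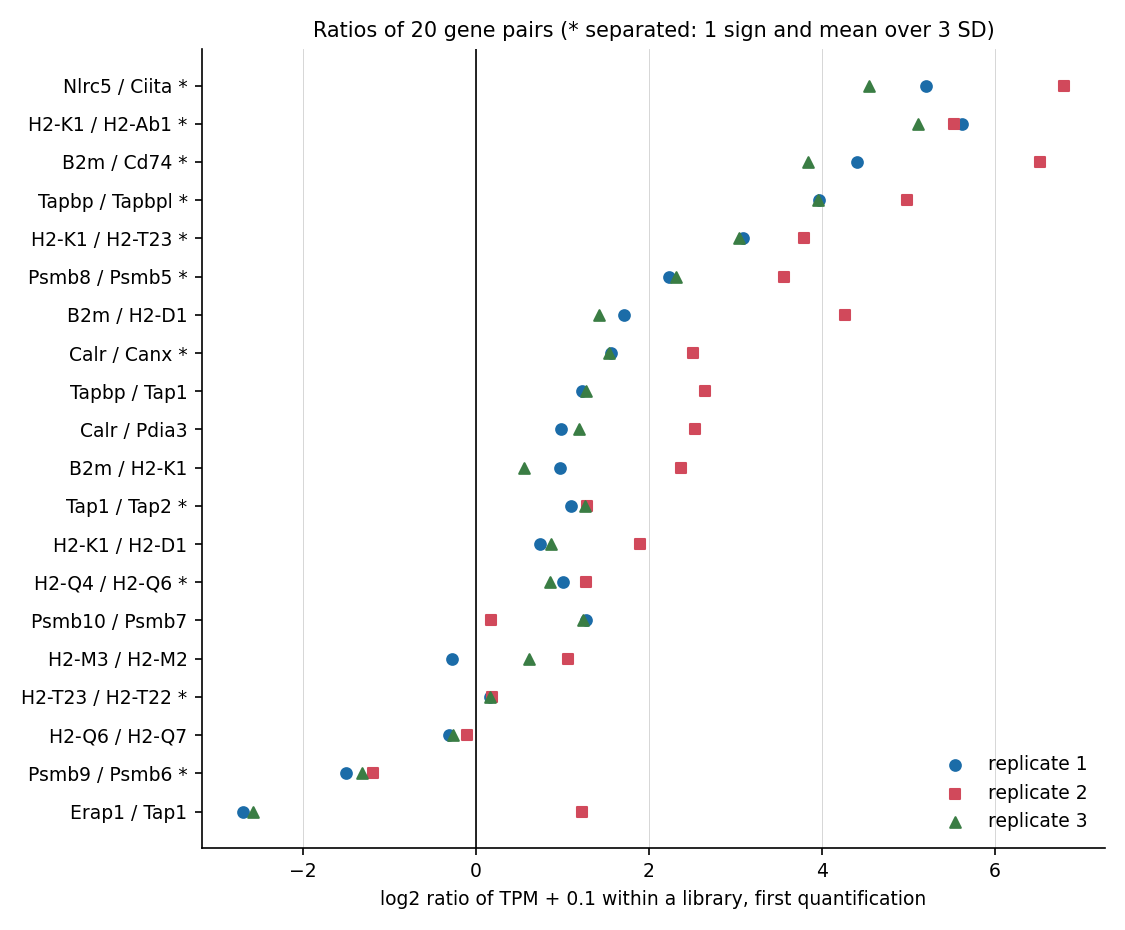
Within-library log2 ratio of TPM + 0.1 for 20 gene pairs, with 1 symbol per library and an asterisk on the 11 separated pairs. Replicate 2 lies apart from the other libraries for pairs with B2m, Calr, Erap1 or Tapbp on top, while Tap1 over Tap2 and H2-T23 over H2-T22 stay close together.

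Short transcripts carried much of the TPM of several members, and the share they took of their gene differed between libraries. H2-K1-215, annotated as a retained-intron transcript of 457 nt (chr17:33996106-33996674), stood at 2748, 3691 and 4491 TPM, which was 31.7%, 68.5% and 48.1% of the H2-K1 total. Of its bases, 95.6% lie in exons of the full-length H2-K1-201 (1619 nt) and 80.7% after the stop codon of that transcript. H2-K1-201 itself stood at 4465, 1011 and 3863 TPM, so it was lower in replicate 2 while H2-K1-215 was not. The share of H2-K1 in heavy-chain TPM over complete coding transcripts was 33.3 ± 3.89%, and that of H2-D1 35.1 ± 1.60%.

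The high Calr and Erap1 levels of replicate 2 lay in short transcripts, and Tapbp, which was not high there as a gene, had more of its TPM in a short transcript in that library. Calr-204 (retained intron, 943 nt, with 90.8% of its bases in exons of Calr-201) stood at 58.1, 1194 and 161 TPM in replicates 1, 2 and 3. The coding Calr-201 (2184 nt) stood at 509, 362 and 457 TPM, lowest in replicate 2. Erap1-203, a coding fragment of 354 nt near the 5′ end with an incomplete coding sequence, stood at 3.16, 165 and 6.39 TPM, while the full-length Erap1-201 (5644 nt) stood at 42.7, 52.8 and 48.3 TPM. Full-length Erap1 therefore varied 1.24-fold between the highest and lowest library, against 4.50-fold for all its coding transcripts. Tapbp-204 (retained intron, 614 nt) stood at 12.2, 329.9 and 5.67 TPM, whereas the coding Tapbp-206 (2589 nt) stood at 674, 215 and 718 TPM. Over complete coding transcripts Tapbp was 769, 301 and 810.0 TPM, lowest in replicate 2. Of the 20 members with a complete coding transcript, 15 were lowest in replicate 2 on that basis. The 3 that were highest there were B2m, Erap1 and Nlrc5. For Nlrc5 this rested on Nlrc5-202 (1721 nt), at 1.22, 52.5 and 0.800 TPM. The longer coding Nlrc5-207 (7578 nt) was lowest in replicate 2, at 42.1, 17.2 and 29.8 TPM. The median over detected protein-coding genes was also lowest in that library, at -0.20 in log2(TPM + 1) from the 3-library mean.

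Tap2 was read mainly as a non-coding transcript, and Nlrc5 in part. Tap2-202, a retained-intron transcript of 2561 nt with 82.2% of its bases in the coding sequence of Tap2-201, held 76.2%, 84.8% and 72.1% of Tap2. Over complete coding transcripts Tap2 was 38.1, 5.19 and 39.6 TPM. For Nlrc5, Nlrc5-203 (retained intron, 1727 nt, 69.3% after the stop codon of Nlrc5-207) held 36.3%, 15.6% and 40.4%, and Nlrc5-202, a coding transcript of 1721 nt at the same 3′ end, held 0.786%, 48.1% and 0.652%. Which of these near-identical 3′ ends took the reads thus differed in replicate 2. The top transcript was the same in both quantifications for 19 of 22 members, and H2-K1, H2-Q5 and Nlrc5 were the exceptions. It was not a protein-coding transcript for 7 members by the first quantification and for 5 by the second.

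**Figure D3:**
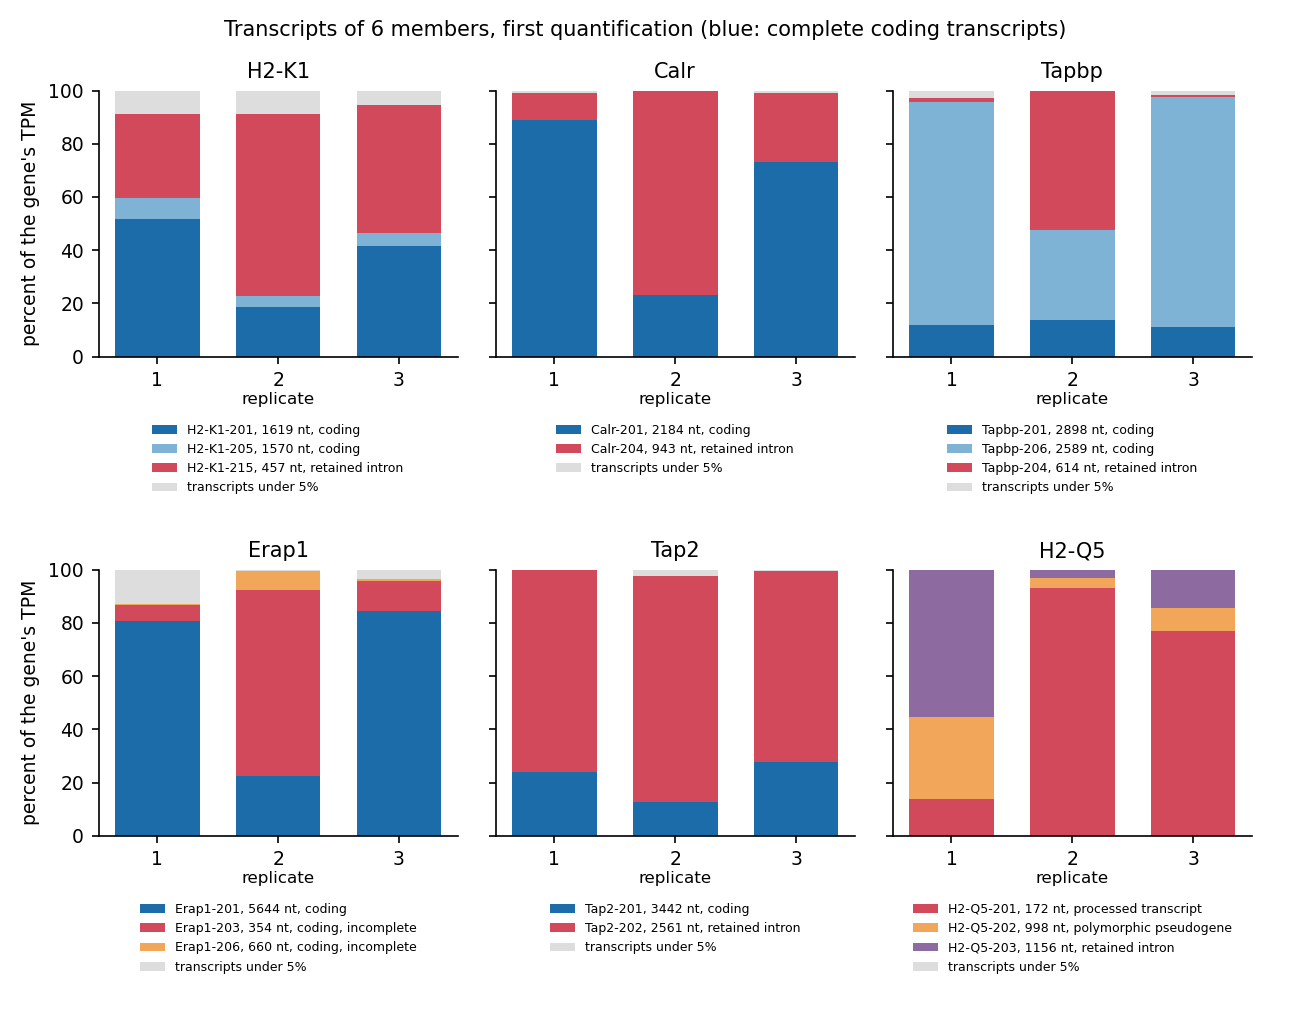
Percent of the gene's TPM held by each transcript in replicates 1, 2 and 3 for 6 members, in the first quantification. Complete coding transcripts are blue, other transcripts of at least 5% on average are red, orange or purple, and the rest are grey. In replicate 2 the blue part falls to 23.2% for Calr and 22.4% for Erap1, against at least 73.3% in the other libraries, and H2-Q5 has no coding transcript.

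Replicate 2 differed from the other libraries in most members. After each library was centred on its 10350 detected protein-coding genes, 16 of 22 members lay below their 3-library mean in replicate 2 and 6 above, with a median deviation of -0.69 on the log2(TPM + 1) scale. In replicate 1, 17 members lay above their mean (median 0.35) and in replicate 3, 16 did (median 0.23). The members above their mean in replicate 2 were B2m (0.78), Calr (1.12), Erap1 (1.59), H2-Q5 (1.06), H2-T24 (0.21) and Pdia3 (0.16), and the farthest below were H2-M2 (-1.36), H2-K2 (-1.04), Tap2 (-1.04) and H2-D1 (-1.02). Among the members' own transcripts, the median log2 difference of replicate 2 from the mean of replicates 1 and 3 was -1.47 over 28 transcripts of 1000 to 2000 nt, against -0.60 over 5074 transcripts of all genes of that length. For transcripts of 500 to 1000 nt it was -0.93 over 22 transcripts of members, against -0.41 over 5972. From 2000 to 4000 nt it was -1.30 over 19, against -0.40 over 7092, and from 4000 nt -0.50 over 4, against -0.21 over 3980. Many of these transcripts belong to the same gene and share exons, so they are not independent. Under 500 nt the order was the other way, with -0.47 over 9 transcripts of members, against -0.65 over 2281. The high mitochondrial share and the low ribosomal RNA share of that library moved with these differences, and their part in them was not tested.

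**Figure D4:**
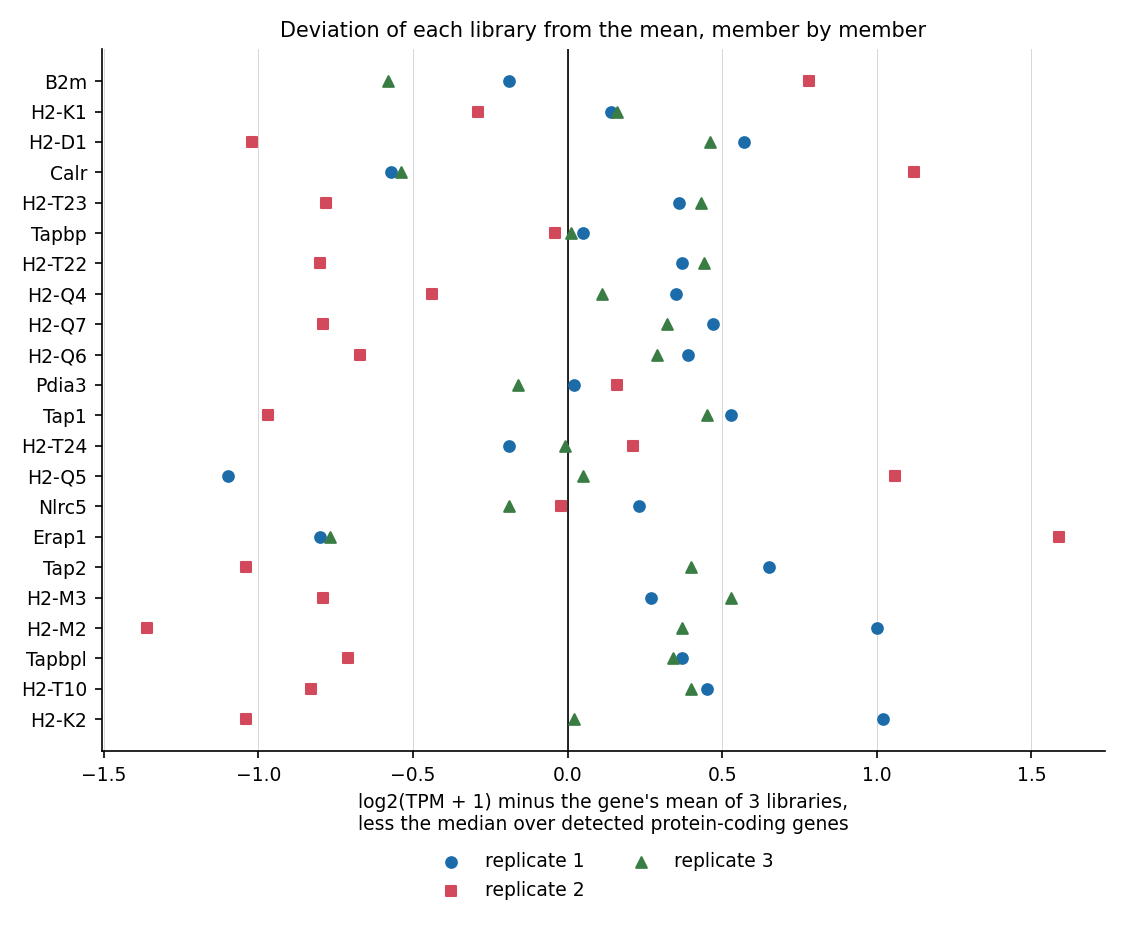
Deviation of each library from the gene's mean of 3 libraries, in log2(TPM + 1) less the library's median over detected protein-coding genes, for 22 members in order of mean TPM. The squares of replicate 2 lie left of 0 for 16 members and far right for Erap1, Calr, H2-Q5 and B2m.

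An intercept-only quasi-likelihood model in edgeR asked whether any member varied between libraries more than genes of like abundance, and no member and no gene was called (0 of 23 members and 0% of 11932 genes). With 3 libraries such a test can miss even large differences, and the lowest edgeR adjusted p of any gene was 0.933. That no member was called therefore does not show that the members varied like other genes. At an unadjusted p under 0.05 stood 4.22% of all genes tested and 2 of 23 members, H2-M2 and H2-K2, with an adjusted p of 0.933 each in edgeR. The median F ratio was 1.83 over the members and 0.84 over all genes. By each of the settings tried, DESeq2 size factors and the second quantification included, the count of members called stayed at 0, although without a filter on low counts 64 other genes were called.

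The second quantification gave close levels for most members. Means of the first and second were 19517 and 17355 TPM for B2m, 7798 and 5826 for H2-K1, 3909 and 3057 for H2-D1, 755 and 696 for Tapbp, and 262 and 212 for Tap1. The median log2 difference, first minus second, was 0.20 over the 23 members tested and 0.12 over 12382 genes. Over all genes the median difference was 0.39, -0.06 and 0.07 in replicates 1, 2 and 3, so part of each difference was shared by the whole library. At an adjusted p under 0.05 in limma and a mean difference of at least 1, 2 of 23 members were called, against 10.2% of all genes, which is 2.08% higher and 8.07% lower in the first.

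H2-Q5 was higher in the first quantification, at 65.2, 247 and 154 TPM, against 55.3, 79.4 and 45.3 TPM in the second. The mean log2 difference was 1.20 with a standard error of 0.30 (limma adjusted p = 0.000632). That standard error is the one limma gave all genes, so the p does not reflect the spread of H2-Q5 itself. The SD of its 3 within-library differences was 0.84. The difference lay in H2-Q5-201, a processed transcript of 172 nt that stood at 9.14, 230.3 and 118 TPM in the first and at 0, 55.5 and 0 TPM in the second. All of its 31-base and 100-base words also occur in transcripts of H2-Q7, so reads of these genes cannot be told apart there. In counts the direction was opposite, with 804.85, 679.6 and 926.35 expected counts in the first and 1501.88, 1022.88 and 1415.64 estimated counts in the second. On CPM the log2 difference of H2-Q5 was -0.48.

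H2-Q10 was lower in the first quantification, at 0.69, 0.59 and 0.38 TPM, against 3.20, 1.66 and 2.85 TPM in the second. The mean log2 difference was -1.18 with a standard error of 0.30, again the one shared by all genes (limma adjusted p = 0.000831). The SD of its 3 within-library differences was 0.39. In counts this was 47.65, 101.23 and 48.63 expected counts, against 410.98, 293.19 and 449.6 estimated counts, the same direction in all 3 libraries. With each library centred on its median difference, an alternative chosen after seeing the data, neither member was called (adjusted p = 0.242 for H2-Q5 and 0.107 for H2-Q10 in limma). The differences were then 1.07 for H2-Q5 and -1.31 for H2-Q10, near those without centring, and 344 genes were called, of which 68 were higher and 276 lower in the first. Neither was called without replicate 3 (adjusted p = 0.253 for H2-Q5 and 0.148 for H2-Q10), and H2-Q5 was not called without replicate 2, where its difference was 0.99. Over all alternatives the limma adjusted p ranged from 0.000432 to 0.496 for H2-Q5 and from 5.92e-09 to 0.257 for H2-Q10.

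**Figure D5:**
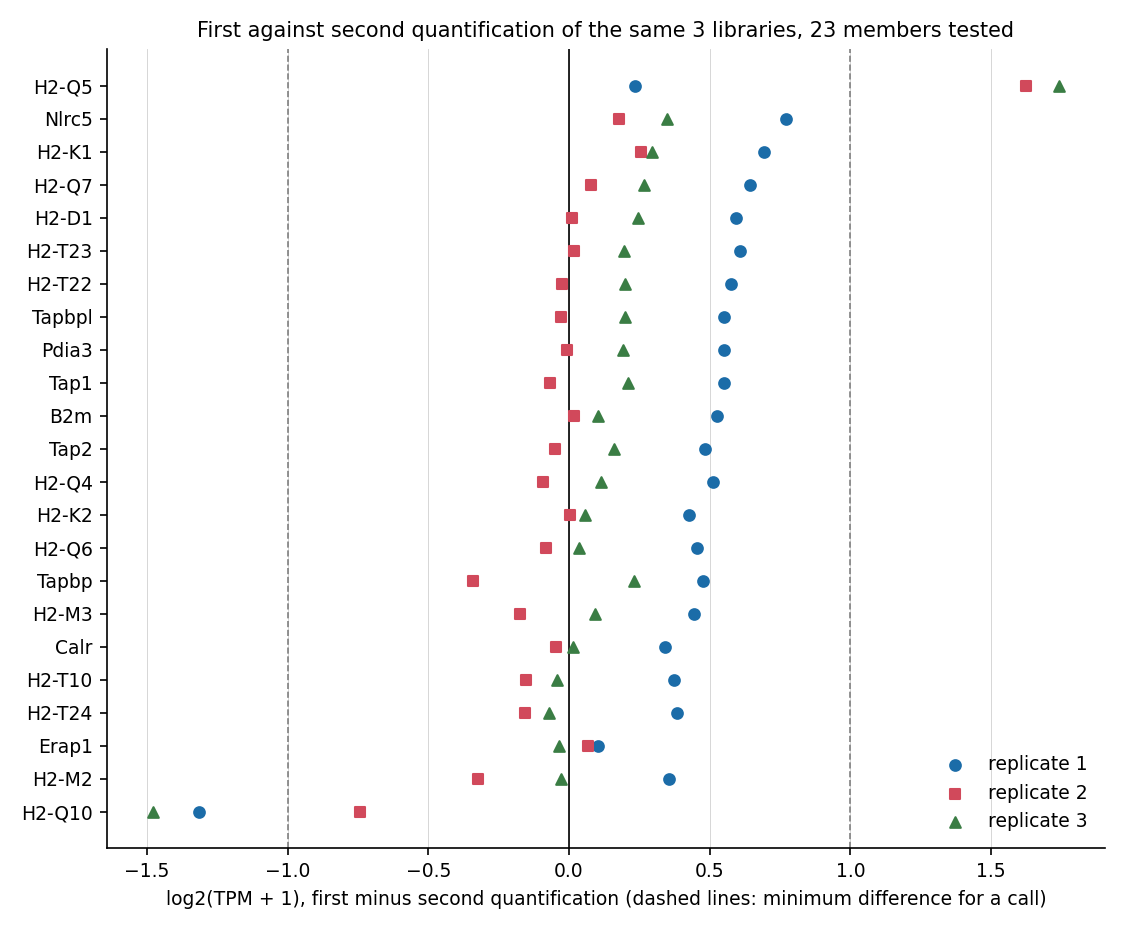
Difference between the first and second quantification in log2(TPM + 1) for the 23 members tested, with 1 symbol per library and dashed lines at the minimum difference for a call. H2-Q5 lies far right in replicates 2 and 3 and H2-Q10 lies left in all 3 libraries, while replicate 1 lies right of the others for most members.

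How far sequence is shared between heavy chains was measured on the top transcript of each member, as the share of 31-base words found in transcripts of another gene. It was 63.8% for H2-T22 and 59.2% for H2-T10, mostly shared with each other, 50.3% for H2-Q6, 48.7% for H2-T23, 43.4% for H2-Q4, 34.5% for H2-Q7 and 27.5% for H2-D1. The top transcripts of B2m, Pdia3, Nlrc5 and Erap1 shared none. That of Erap1 was a fragment of 354 nt, against 5644 nt at full length. That of Nlrc5 was a retained-intron transcript of 1727 nt, against 7578 nt for the longer coding one. The top transcript of H2-K1, of 457 nt and mostly after the stop codon, shared 4.68%. Most of the full-length sequence of Erap1 and Nlrc5 and most of the H2-K1 coding sequence were therefore not measured. Over words of 100 bases, the shares were 14.8% for H2-T22, 10.8% for H2-Q6 and 4.64% for H2-D1. Levels of H2-Q5, H2-T22, H2-T10, H2-Q6, H2-Q4 and H2-T23 therefore rest on a model that divides shared reads and are uncertain to that extent. The sources used here do not state whether counting used strand, so reads of genes that overlap on opposite strands could not be told apart.

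Genes that supply or receive class I molecules were read beside the members. All 8 proteasome genes of the immunoproteasome list reached 1 TPM in every library, led by the activator subunits Psme2 (870.4 ± 498 TPM) and Psme1 (676 ± 98.9 TPM) and the inducible catalytic subunit Psmb8 (618 ± 289 TPM). Psmb8 exceeded its constitutive counterpart Psmb5 by a log2 ratio of 2.70 ± 0.74 over all transcripts, but over complete coding transcripts the ratio was -3.37 ± 0.80, the opposite direction. Psmb9 lay below Psmb6 at -1.34 ± 0.15, which on CPM was -0.65 ± 0.33 and no longer separated. Of 15 regulators of class I transcription, 14 reached 1 TPM in every library. They included Irf1 (203 ± 48.4 TPM), Irf2 (106 ± 46.1 TPM) and Nfkb1 (115, 53.5 and 91.1 TPM). Nlrc5 lay above Irf2 in replicates 1 and 3 and below it in replicate 2 (109 TPM for Nlrc5, against 159 TPM for Irf2), and over complete coding transcripts Nlrc5 averaged 54.6 ± 14.6 TPM. The lowest were Rfxank (5.63 ± 2.23 TPM) and Ciita (3.37 ± 2.22 TPM). Of 11 class II genes 8 reached 1 TPM in every library, with the chains H2-Aa (234 ± 163 TPM) and H2-Ab1 (187 ± 76.3 TPM) far below H2-K1.

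All 10 folding genes of the endoplasmic reticulum reached 1 TPM in every library, with Hspa5 (588 ± 326 TPM) and Hsp90b1 (290.1 ± 53.8 TPM) leading. Calr lay below Hspa5 in replicate 1 (573 TPM for Calr, against 949 TPM for Hspa5) and above it in replicates 2 and 3, and over complete coding transcripts Calr averaged 443 ± 74.4 TPM. The 7 other peptide-trimming enzymes found also reached it, led by Rnpep (152 ± 55.1 TPM) and with Thop1 (4.57 ± 1.97 TPM) lowest by mean. Erap1 lay above all 7 in replicate 2, at 236 TPM, and within their range in replicates 1 and 3. Over complete coding transcripts Erap1 stood at 42.7, 52.8 and 48.3 TPM, against 148, 99.5 and 209 TPM for Rnpep over all its transcripts. Other proteins with the class I fold were scarce, with 7 of 10 at 1 TPM in every library and Fcgrt, the neonatal Fc receptor that also pairs with B2m, the highest at 22.2 ± 11.6 TPM. Of 10 genes listed as receptors, 6 reached 1 TPM in every library. Pirb, an inhibitory receptor of myeloid cells for class I molecules, stood at 623 ± 163 TPM. The list also held Lilr4b (1017 ± 234 TPM) and Lilrb4a (630.2 ± 314 TPM), related receptors that are not established as binding class I, while Klrd1 and Klrc1, which form the receptor for H2-T23, averaged 0.143 and 0.0667 TPM. No gene of these lists that was tested was called between the quantifications by limma, against 10.2% of all 12382 genes tested, protein-coding or not. With protein-coding genes alone tested, 169 of 10203 were called.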

How the data were processed

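Polyadenylated RNA of 3 macrophage libraries of 1 treatment group was analysed from 2 quantifications of mm10 transcripts in GENCODE M21, per the file headers and the notes deposited with the files. The tools behind them were not given in the sources used here. Per the file headers, the authors' first tables hold expected counts per gene and transcript, and the second, also as deposited, give estimated counts per transcript, here summed to genes. Both deposited kinds also hold TPM, and the deposited first tables hold the isoform percent of each transcript and, as a score, the posterior standard deviation of the count. That score was at most 2.27% of the count for members above 0.1 TPM. Entries that name no gene (0.0875%, 0.0464% and 0.0636% of counts) were left out.

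Quantifications were compared with limma 3.58.1 on within-library differences of log2(TPM + 1) for genes averaging 1 TPM or more by one of them, called at a Benjamini-Hochberg adjusted p under 0.05 and a difference of at least 1. The limma prior left 1 standard error for all genes. Excess variance was tested one-sided with edgeR 4.0.16 (TMM, filterByExpr, rounded expected counts, intercept only) against the trended prior. Both were run on simulated data, and a minimum recovery was set for the limma comparison alone. Pair ratios used a pseudocount of 0.1 TPM. Library totals ranged from 24596382 to 54016971 expected counts, and limits for 0 counts cover counting error only. Members averaging at least 10 TPM were named with each library's value, called members were all named, and of related genes up to the 6 highest and 3 lowest of a list. Of 8 listed trimming enzymes 7 were found. The level of 1 regulator of class I transcription is not reported here. Members, lists and tests were chosen with earlier results of these data known. Alternatives are in the closing section.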

Additional observations from a re-analysis of the deposited data

How the results depend on the processing

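No paired analysis was possible because no 2 groups of samples exist to pair, and the quantifications were compared within each library. The 2 members called between quantifications (of 1257 genes called) stayed 2 with a pseudocount of 0.1 TPM and with no minimum difference. They became 0 with no filter on low values (0 genes called), 1 with a mean of at least 5 TPM (504 genes) and 1 over protein-coding genes only (169 genes). They became 0 with CPM in place of TPM (191 genes) and 0 with each library centred on its median difference (344 genes, chosen after seeing the data). They ranged from 0 to 2 with 1 library left out (897 to 1378 genes). The cause was not tested, beyond the CPM value of H2-Q5 (-0.48, the opposite direction). Excess variance called 0 members under each setting run, and over all genes 64 with no filter on low counts and 7 to 20 with 1 library left out, which leaves 2 samples. The 22 members at 1 TPM became 23 at 0.1 TPM, 21 at 10 TPM and 23 by the second quantification.

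The 11 separated pairs ranged from 9 to 18 with 1 library left out, 18 being without replicate 2. On CPM, H2-T23 over H2-T22 reversed to -0.09, and Calr over Canx (0.83), Psmb9 over Psmb6 (-0.65) and B2m over Cd74 (4.18) were no longer separated. Over complete coding transcripts only, chosen after seeing the data, Psmb8 over Psmb5 reversed to -3.37 and Nlrc5 over Ciita (4.41) was no longer separated. Without replicate 1, Calr over Canx (2.02) and B2m over Cd74 (5.18) were not. The share of H2-K1 (53.1%) was 33.7% on expected counts and 33.3% over complete coding transcripts, and that of H2-D1 (24.2%) was 37.4% and 35.1%. With 1 library left out they ranged from 49.0% to 55.6% and from 21.8% to 28.0%. Of 22 mean levels, 19 moved by less than 1 SD with the second quantification, and H2-Q5, Nlrc5 and Pdia3 moved by more. Counts near 0 limit the 18 lowest members.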
